A study of Homo sapiens with 4 samples.

Results

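The 41 genes described here carry amino acids into the cell, turn glutamine and glutamate over, or spend glutamine nitrogen and the carbon of serine. They were chosen by symbol as a working list of amino acid transport and glutamine metabolism, out of 29853 RefSeq genes. A gene counted as having a peak when its symbol was assigned to at least 1 region of a deposited peak list, and each region was entered once per symbol. Under this rule 15 of the 41 genes had a peak in either list and 26 had none in either list. Over all 29853 genes, 24.7% had a peak in the H3K27ac list, 13.6% in the HSF1 list and 3.48% in both.

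Glutamine enters cells through sodium-dependent carriers such as SLC1A5 (ASCT2), and the CD98 heterodimers exchange part of it for essential amino acids. Inside the cell its amide nitrogen goes to asparagine, hexosamines and nucleotides, while glutamate feeds aminotransferases, proline synthesis and the tricarboxylic acid cycle. Serine made by the phosphorylated pathway supplies folate-bound carbon units for purines and thymidylate. When amino acids run short, ATF4 induces many of these genes through amino acid response elements.

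The series profiled HCT116, an established human colorectal carcinoma line, by chromatin immunoprecipitation sequencing (ChIP-seq), with cells grown in serum-containing medium and fixed in formalin with no treatment. The 4 groups were an H3K27ac immunoprecipitate (IP) set against its own input, and an HSF1 IP set against its own input. H3K27ac, acetylated lysine 27 of histone H3, marks active promoters and enhancers, and HSF1 is the transcription factor of the heat shock response. Each group held 1 library, so the values carry no replicate error and no test between groups was possible.

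The H3K27ac list held 15789 peaks with a median of 24 tags each, and the HSF1 list 13127 peaks with a median of 20 tags each. Total library depth is unknown from the sources used here. Of 12 marker genes of colonic epithelium, 8 had an H3K27ac peak (CDH1, CLDN4, EHF, ELF3, GRHL2, KRT18, KRT20 and KRT8), while EPCAM, CDX1, CDX2 and VIL1 had none. Of 6 leukocyte markers only PTPRC had one, and of 6 markers of fibroblasts and endothelium DCN and VWF had one. Over all genes the share with an H3K27ac peak was 24.7%. The epithelial share, 66.7% (exact 95% interval 34.9% to 90.1%), was above it. The intervals of the leukocyte markers (0.421% to 64.1%) and of the fibroblast and endothelium markers (4.33% to 77.7%) contained it. Lists of 6 markers are too short to tell their shares from that of all genes.

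Promoter sequences are shown for 5 genes on which the results turn. MTHFD1L held the longest run of acetylated peaks among the 41 genes, ASNS and GOT2 had an HSF1 peak as well as an H3K27ac peak, MTHFD1 had an H3K27ac peak just inside its start, and SLC1A5 is the glutamine carrier that the study followed. For genes with several windows a window holding TGATGNAA is shown, chosen for that match. For MTHFD1L the intragenic window is shown as well, since its acetylated run began near an intragenic start of the peak list. Each sequence is a RefSeq window of 300 bases in GRCh38.p14, from 250 bases before a transcription start to 50 bases after it, written 5′ to 3′ on the strand of the gene. Capitals mark matches on either strand to TGATGNAA (the core of the amino acid response element), CACGTG (an E-box), or GAANNTTC and TTCNNGAA (pairs of heat shock element units).
MTHFD1L promoter window, chr6:150866236-150866535 (+ strand): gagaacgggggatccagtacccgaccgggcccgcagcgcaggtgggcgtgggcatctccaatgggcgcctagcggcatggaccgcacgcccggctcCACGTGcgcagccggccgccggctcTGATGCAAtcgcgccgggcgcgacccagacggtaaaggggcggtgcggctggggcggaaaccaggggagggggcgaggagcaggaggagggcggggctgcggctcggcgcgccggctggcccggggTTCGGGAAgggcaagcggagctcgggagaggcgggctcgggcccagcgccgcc
MTHFD1L intragenic promoter window, chr6:151006758-151007057 (+ strand): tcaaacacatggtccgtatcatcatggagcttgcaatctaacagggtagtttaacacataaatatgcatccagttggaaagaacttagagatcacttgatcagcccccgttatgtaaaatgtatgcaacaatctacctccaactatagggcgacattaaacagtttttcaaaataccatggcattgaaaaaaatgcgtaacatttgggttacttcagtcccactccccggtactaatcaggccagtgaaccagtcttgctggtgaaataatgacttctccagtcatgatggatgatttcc
ASNS promoter window, chr7:97872359-97872658 (− strand): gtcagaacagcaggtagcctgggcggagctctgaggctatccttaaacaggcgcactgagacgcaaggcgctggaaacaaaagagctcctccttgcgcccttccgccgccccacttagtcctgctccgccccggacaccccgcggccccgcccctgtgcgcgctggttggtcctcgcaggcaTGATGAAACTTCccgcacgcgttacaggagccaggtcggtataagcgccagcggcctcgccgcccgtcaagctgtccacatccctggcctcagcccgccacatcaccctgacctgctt
GOT2 promoter window, chr16:58734267-58734566 (− strand): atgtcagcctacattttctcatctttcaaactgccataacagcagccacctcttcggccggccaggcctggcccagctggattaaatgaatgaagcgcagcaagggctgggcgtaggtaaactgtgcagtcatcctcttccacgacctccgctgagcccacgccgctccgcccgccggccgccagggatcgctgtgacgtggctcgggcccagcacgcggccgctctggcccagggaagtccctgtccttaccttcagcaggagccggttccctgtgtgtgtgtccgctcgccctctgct
MTHFD1 promoter window, chr14:64388103-64388402 (+ strand): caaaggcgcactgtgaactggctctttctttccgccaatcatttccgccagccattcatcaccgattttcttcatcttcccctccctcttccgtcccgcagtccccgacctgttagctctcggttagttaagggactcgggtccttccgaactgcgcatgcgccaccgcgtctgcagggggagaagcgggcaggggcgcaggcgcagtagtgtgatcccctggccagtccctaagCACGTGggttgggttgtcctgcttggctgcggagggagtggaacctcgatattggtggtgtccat
SLC1A5 promoter window, chr19:46784765-46785064 (− strand): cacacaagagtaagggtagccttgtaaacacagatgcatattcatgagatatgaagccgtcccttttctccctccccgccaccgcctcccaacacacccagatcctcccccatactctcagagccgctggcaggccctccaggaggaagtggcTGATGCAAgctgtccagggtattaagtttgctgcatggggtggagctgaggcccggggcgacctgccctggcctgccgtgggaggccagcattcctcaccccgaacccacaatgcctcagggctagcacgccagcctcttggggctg

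In the first MTHFD1L window the E-box lay at −154, TGATGCAA at −129 and TTCGGGAA at −3 from the start. The window shared bases with 2 others of this gene, which held the same TGATGCAA and CACGTG. The fourth window, of the intragenic RefSeq start 140.5 kb farther downstream, held no match. The RefSeq starts were not matched to the hg19 starts of the peak list. In the ASNS window TGATGAAA at −68 overlapped GAAACTTC at −64, so both matches share bases and are not independent, and the other ASNS window held no match. The SLC1A5 window is 1 of 3 for the gene, that of the start farthest downstream, and held TGATGCAA at −97. The middle window held CACGTG, and the window of the first start held no match. The MTHFD1 window held CACGTG at −15, and no searched motif was found in the GOT2 window.

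Windows were found for 35 of the 41 genes, 58 windows in all. TGATGNAA was present for 10 of the 35 genes (ASNS, BCAT1, GOT1, MTHFD1L, SLC1A3, SLC1A4, SLC1A5, SLC38A1, SLC3A2 and SLC7A1), a share of 28.6%, against 4.46% of 27305 genes in the table. By window the share was 20.7%, against 3.62% of 35116 windows. CACGTG was present in 24.1% of the windows of these genes, against 7.26% of all windows. By gene it was found for 31.4% against 8.77%. Overlapping windows, as at MTHFD1L and ATF4, count the same site more than once in the shares by window. GAANNTTC was present in 8.62% of these windows against 6.77% of all, and TTCNNGAA in 10.3% against 7.74%. By gene, GAANNTTC was found for 14.3% against 8.21%, and TTCNNGAA for 14.3% against 9.46%. The 35 genes had 58 windows and the 27305 genes had 35116, so the shares by gene rest on unequal numbers of windows per gene. For the motifs no share over protein-coding genes alone is given. These letters describe the windows and do not locate a bound site. The starts of the RefSeq table need not be those of the peak lists, which use hg19.

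H3K27ac peaks were assigned to 14 of the 41 genes (34.1%, exact 95% interval 20.1% to 50.6%), and 24.7% of all RefSeq genes had such a peak. Among protein-coding genes alone the share was 28.5%, so the count of 14 lay within what the interval allows for either background. A peak of the promoter class was present at 6 genes (14.6%, interval 5.57% to 29.2%), beside 9.99% of all genes. A peak within 10 kb of a listed start was present at 8 genes (19.5%, interval 8.82% to 34.9%), beside 15.8% of all genes. Each of these intervals contained the share of all genes.

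HSF1 peaks were assigned to 3 genes, ASNS, GFPT1 and GOT2 (7.32%, exact 95% interval 1.54% to 19.9%), beside 13.6% of all genes. All 3 had an HSF1 peak within 100 kb of a listed start, beside 11.3% of all genes. Peaks of both lists were assigned to ASNS and GOT2 (4.88%, interval 0.596% to 16.5%), beside 3.48% of all genes. Each interval contained the share of all genes, so no difference in HSF1 peaks was detected.

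**Figure D1:**
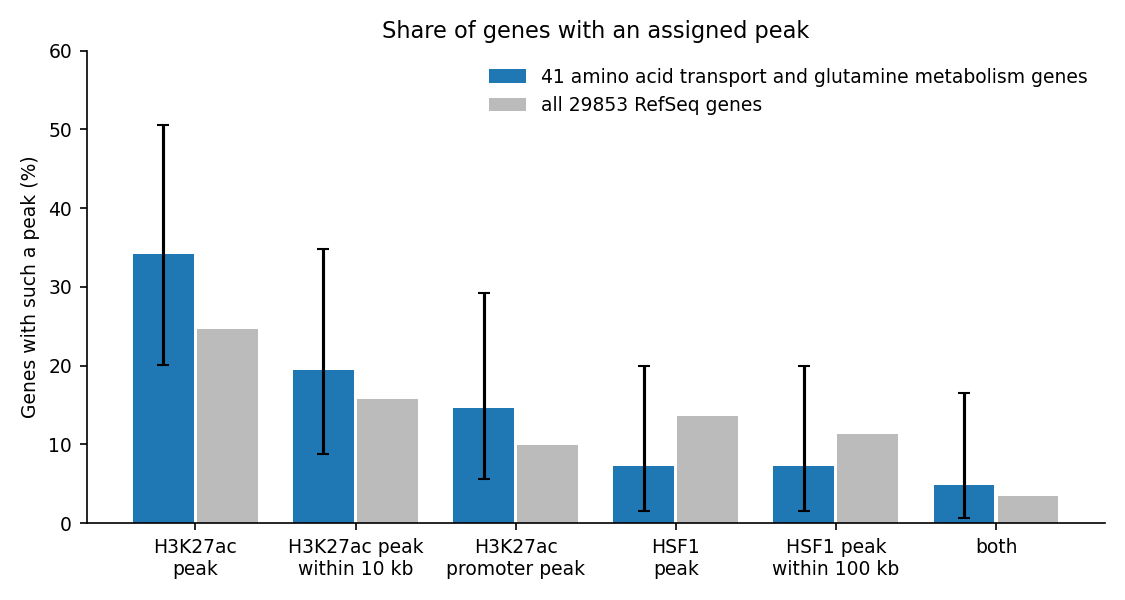
Share of the 41 amino acid transport and glutamine metabolism genes (blue, left) and of all 29853 RefSeq genes (grey, right) with each kind of assigned peak, in percent. Error bars are exact 95% binomial intervals over the 41 genes, and each of the 6 intervals contains the grey value beside it, for example 20.1% to 50.6% around the H3K27ac share and 24.7% for all genes.

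The 14 genes held 43 H3K27ac peaks. MTHFD1L alone accounted for 22 of them (51.2%), 5 genes had 2 or 3 peaks and 8 genes had 1. The median fold enrichment, the ratio of IP over local background given in the list, was 6.73 over the 43 peaks (quartiles 6.17 and 7.86) and 6.73 over the whole list (quartiles 5.76 and 7.35). The value 6.73 recurred at 11.0% of the peaks of the list. Of the 43 peaks, 21 were above it, 17 below it and 5 at it. The median was also 6.73 over the 21 peaks outside MTHFD1L. Intron peaks made up 69.8% of the 43 peaks, against 33.4% of the list, but 47.6% (exact 95% interval 25.7% to 70.2%) of the 21 peaks outside MTHFD1L.

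The score of a peak is 10 times the negative log10 of its p-value, and a score of 50, the lowest in the H3K27ac list, stands for a p-value of 1e-05. A score of 100 or more was reached by 3 of the 21 peaks outside MTHFD1L (14.3%), against 17.0% of the list. Scores under 60 were found at 12 of these 21 peaks, while 38.8% of the list scored 59.52 or less. The median score of the 21 peaks was 57.43, against 64.28 in the list. Outside MTHFD1L the median peak was 1164 bp wide with 23 tags, against 1198 bp and 24 tags in the list, so the peaks at these genes were of ordinary size for this library.

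**Figure D2:**
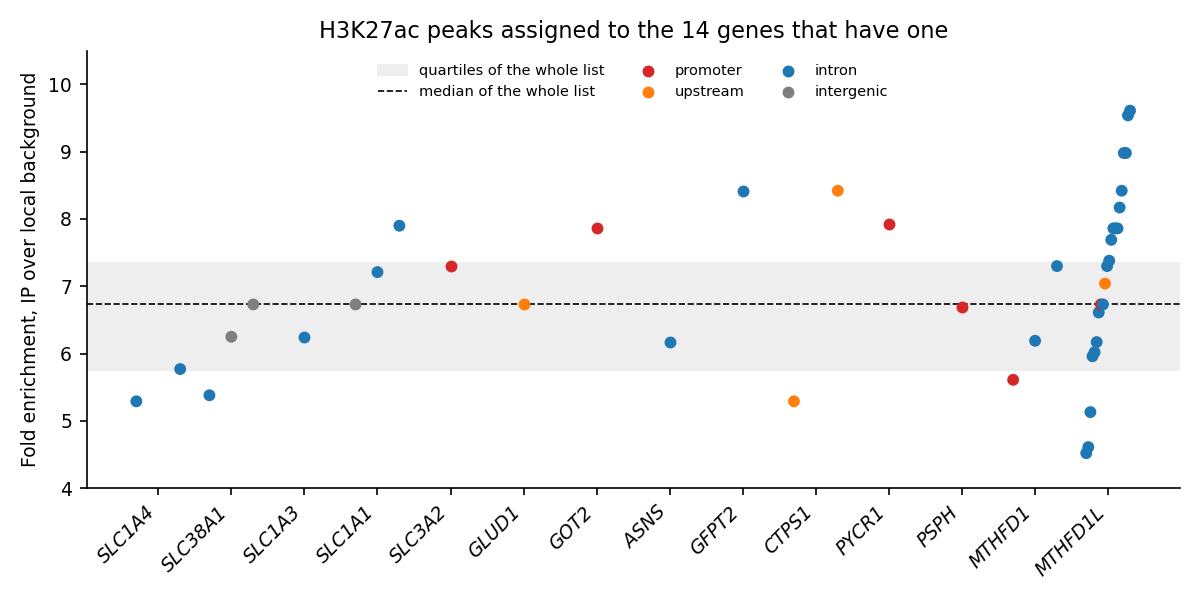
Fold enrichment of each H3K27ac peak (IP over local background, vertical axis from 4) assigned to the 14 genes, ordered by role and coloured by annotation class. The dashed line is the median of the whole list (6.73) and the grey band its quartiles (5.76 to 7.35), and the 22 MTHFD1L peaks run over the widest range, 4.52 to 9.61.

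Among the 14 transporters 5 had an H3K27ac peak (35.7%, exact 95% interval 12.8% to 64.9%), beside 24.7% of all genes. None had an HSF1 peak, beside 13.6% of all genes, and so few transporters decide little. SLC1A5, the sodium-dependent exchanger that imports glutamine, had no row in either list. SLC38A2 and SLC38A5, sodium-coupled glutamine carriers, and SLC6A14, a carrier of broad specificity, had none either. SLC38A1, another sodium-coupled glutamine carrier, had 3 H3K27ac peaks, of which the highest (chromosome 12, 46538467 to 46539520) was intergenic, 121 kb from the listed start in the direction of transcription and beyond the end of the gene. It was 1054 bp wide and held 19 tags, with a 6.73-fold enrichment and a score of 52.05. The other SLC38A1 peaks were intergenic with a 6.25-fold enrichment and intronic with a 5.38-fold enrichment. SLC1A4 (ASCT1), which exchanges alanine, serine and cysteine, had 2 intron peaks with 5.77-fold and 5.29-fold enrichment, both under the list median. None of the 5 peaks at these carriers was in the promoter class, which held 16.7% of the list, so a count of 0 says little here.

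Both transporters of glutamate and aspartate had H3K27ac peaks, 4 in all, of the intron or intergenic class. SLC1A1 (EAAT3) had 3 peaks, and the highest (chromosome 9, 4512197 to 4513379) lay in an intron 22.3 kb inside the gene, 1183 bp wide with 25 tags, a 7.90-fold enrichment and a score of 72.32. The others were an intron peak with a 7.21-fold enrichment and an intergenic peak 75.0 kb before the start with a 6.73-fold enrichment. SLC1A3 (EAAT1) had 1 intron peak with a 6.25-fold enrichment and 29 tags.

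Of the cationic and heteromeric transporters, SLC3A2 alone had a peak. SLC3A2 encodes the heavy chain of CD98, which brings LAT1 and related light chains to the plasma membrane. Its promoter peak (chromosome 11, 62622648 to 62623306) was the narrowest of the 43, 659 bp with 16 tags, a 7.30-fold enrichment and a score of 62.43. The midpoint lay 0.604 kb before the SLC3A2 start, and the same region was assigned to SNHG1 and to small nucleolar RNA genes within it, 7 other symbols in all, so the peak cannot be given to SLC3A2 alone. The light chains SLC7A5 (LAT1), SLC7A8 (LAT2) and SLC7A6, and the arginine and lysine carriers SLC7A1 and SLC7A2, had no peak in either list.

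Among the 25 enzymes 9 had an H3K27ac peak (36.0%, exact 95% interval 18.0% to 57.5%), beside 24.7% of all genes. Of the enzymes of glutamine and glutamate, GOT2 and GLUD1 had one, while GLS2 (a glutaminase), GLUL (glutamine synthetase), GOT1 and GPT2 had none in either list. GOT2 encodes the mitochondrial aspartate aminotransferase of the malate-aspartate shuttle. Its promoter peak (chromosome 16, 58766887 to 58768214) ended just inside the listed start at 58768220, and was 1328 bp wide with 23 tags, a 7.86-fold enrichment and a score of 57.43. GLUD1, glutamate dehydrogenase, had an H3K27ac peak of the upstream class 2.36 kb before the start with a 6.73-fold enrichment and 31 tags. The median on chromosome 10, where GLUD1 lies, was 29 tags per H3K27ac peak, and the part of the chromosome in this value was not tested.

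The enzymes that spend the amide nitrogen of glutamine had 4 H3K27ac peaks, of the upstream or intron class. GFPT2, the first enzyme of hexosamine synthesis, had an intron peak (chromosome 5, 179756860 to 179758194) 22.8 kb inside the gene, 1335 bp wide with 28 tags, an 8.42-fold enrichment and a score of 84.56. CTPS1, which makes CTP from UTP, reached the same 8.42-fold enrichment at an upstream peak (chromosome 1, 41433872 to 41436198), 10.3 kb before the start. The CTPS1 peak was wider, at 2327 bp, and held 55 tags with a score of 174.1, the highest score outside MTHFD1L. A second CTPS1 peak nearby had a 5.29-fold enrichment. ASNS, asparagine synthetase, had 1 intron peak (chromosome 7, 97536523 to 97537501), 979 bp wide with 18 tags, a 6.17-fold enrichment and a score of 51.13, close to the lowest score in the list. PPAT and CAD, which open purine and pyrimidine synthesis, had no peak in either list, and GFPT1 had no H3K27ac peak.

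PYCR1, which completes proline synthesis from glutamate, had the only H3K27ac peak among the 43 that covered a listed start of its own gene. The peak (chromosome 17, 79893918 to 79895977) was 2060 bp wide and held 53 tags, with a 7.92-fold enrichment and a score of 150.48. It contained the whole of the windows from 250 bases before to 50 bases after the PYCR1 starts of the list. The median on chromosome 17 was 36 tags per H3K27ac peak, and its part in the PYCR1 value was not tested. ALDH18A1, which makes the precursor of proline, and ASS1, argininosuccinate synthetase, had no peak in either list.

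Of the 8 genes of serine synthesis and folate carbon metabolism, MTHFD1L, MTHFD1 and PSPH had H3K27ac peaks, and each had a promoter peak. PSPH, which releases serine from phosphoserine, had a promoter peak with a 6.69-fold enrichment and a score of 117.06, which was also assigned to CCT6A, a chaperonin subunit gene. MTHFD1, the cytosolic enzyme that interconverts folate-bound carbon units, had a promoter peak with a 5.61-fold enrichment, centred 1.02 kb inside the gene, and 2 intron peaks with 6.19-fold and 7.30-fold enrichment. PHGDH and PSAT1, which precede PSPH in serine synthesis, SHMT1, SHMT2 and MTHFD2 had no peak in either list. The branched-chain aminotransferases BCAT1 and BCAT2, and the regulators ATF4 and MTOR, had none either.

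MTHFD1L, the mitochondrial enzyme that releases formate from 10-formyltetrahydrofolate, differed from the other 13 genes in the number of its peaks. It had 22 H3K27ac peaks, against a median of 1 over the 7362 genes with a peak, and 28 genes had more. It was the only gene of the 41 with 4 or more peaks (2.44%, exact 95% interval 0.0617% to 12.9%), beside 3.61% of all genes. The peak list gives MTHFD1L a first start at 151186814 on chromosome 6, an intragenic start at 151328143 and an end at 151423023. The lone peak near the first start (151176348 to 151177356) lay 9.96 kb before it, 1009 bp wide with 19 tags, a 7.04-fold enrichment and a score of 52.56.

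The other 21 peaks formed a run from 2.09 kb before the intragenic start to 74.7 kb after it. The largest gap between neighbours was 6.30 kb and the median gap 1.63 kb. The run held 913 tags, 98.0% of those at MTHFD1L. Its first peak (151326053 to 151327181) was of the promoter class, 1129 bp wide with 20 tags, a 6.73-fold enrichment and a score of 53.0, and the other 20 were in introns.

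The highest fold enrichment was 9.61, at a peak of 2619 bp with 72 tags and a score of 210.39 (151358540 to 151361158). Next to it stood 9.54, at a peak of 2240 bp with 58 tags and a score of 200.86 (151333484 to 151335723), the first intron peak of the run. The widest peak (151383806 to 151388858) covered 5053 bp with 107 tags, a 7.30-fold enrichment and a score of 290.51. The lowest fold enrichment, 4.52, also came from a wide peak, of 2730 bp with 56 tags (151354241 to 151356970). Peaks above and below the list median were mixed along the run, 12 of the 21 above it.

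Over the 22 peaks the median was 35 tags, against 24 in the list, and the median width was 1594 bp, against 1198 bp. A score of 100 or more was reached by 10 of the 22 (45.5%), against 17.0% of the list. The false discovery rate given with each peak was highest where the score was highest, 100% at the peaks with scores of 290.51 and 240.5 and 9.57% at the peak with a score of 52.16, so it did not rank these peaks as the score does. These 22 peaks come from 1 gene in 1 library and are not independent samples.

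**Figure D3:**
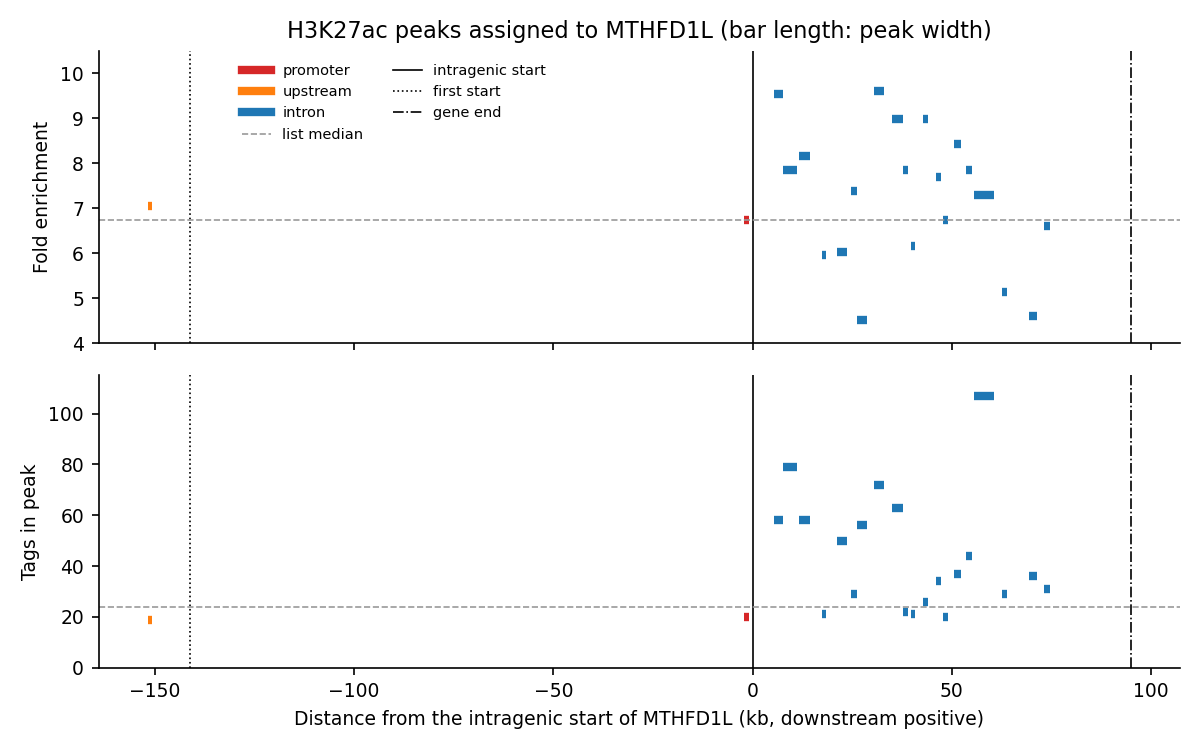
The 22 H3K27ac peaks assigned to MTHFD1L by distance from the intragenic start (horizontal axis, kb, downstream positive), with fold enrichment above (axis from 4) and tags per peak below. Each bar spans the width of a peak, colours give the annotation class, and the dashed line is the list median (6.73-fold and 24 tags). In the stretch from 2.09 kb before to 74.7 kb after the intragenic start lie 21 peaks, with gaps between them.

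A super enhancer is usually called by joining neighbouring H3K27ac peaks and ranking the joined regions by signal. Peaks within 10 kb were joined here into 10295 regions. Each region was given the summed product of peak width and fold enrichment, and 279 regions lay above the point where the scaled rank curve has a tangent of slope 1. The MTHFD1L region (chromosome 6, 151326053 to 151417064) ranked 9 of 10295. It spanned 91.0 kb and held 24 peaks and 1012 tags, with 46.6 kb (51.2%) covered by peaks, against a median span of 27.4 kb and a median of 6 peaks over the regions above the tangent point. The 3 peaks of the region that were not given to MTHFD1L were assigned to MIR12131.

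Of the 41 genes MTHFD1L alone had a region above the tangent point (2.44%, exact 95% interval 0.0617% to 12.9%), beside 1.26% of all genes. The next of these genes was CTPS1 at rank 1110, with a region of 4.32 kb and 78 tags, followed by PYCR1 at 2251 and SLC1A4 at 3323. The ranking used the deposited peaks in place of read signal, which was not analysed here.

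**Figure D4:**
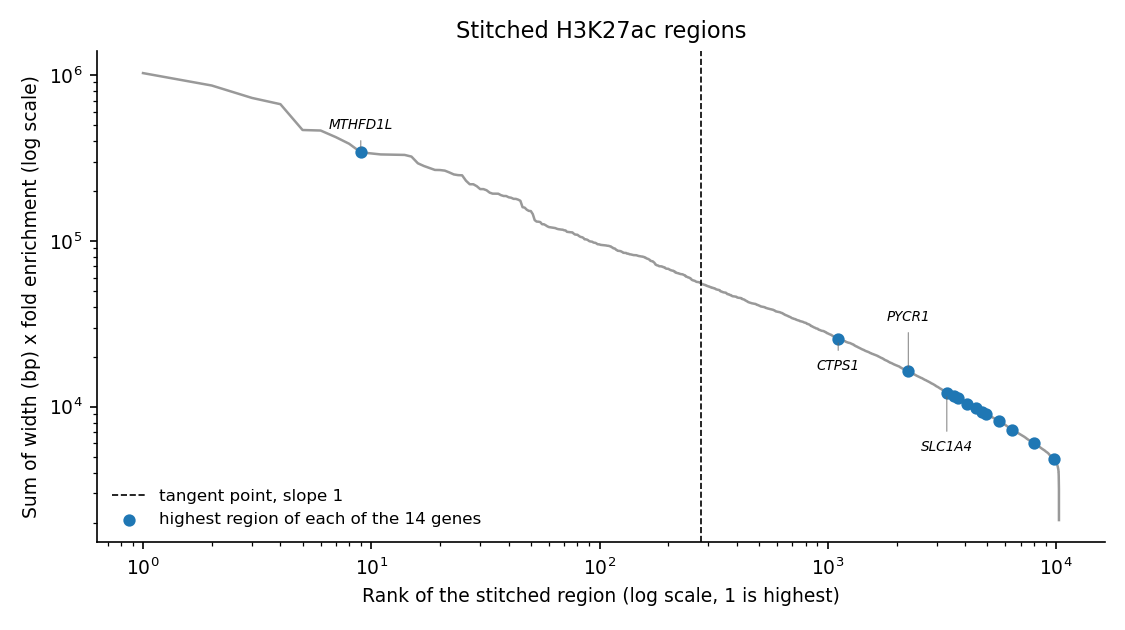
Signal of each stitched H3K27ac region (sum of peak width in bp times fold enrichment, log scale) by rank (log scale, 1 is highest). Points are the highest region of each of the 14 genes (the first 4 named), the dashed line is the tangent point after rank 279, and MTHFD1L at rank 9 is the only point left of it, with CTPS1 next at rank 1110.

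The study also profiled HSF1, and 6 HSF1 peaks were assigned to these genes. Their median fold enrichment was 4.26, against 4.68 in the list (quartiles 4.07 and 5.32), their median was 16 tags, against 20, and their median score 31.2, against 35.9. The lowest score in the HSF1 list was 30, which stands for a p-value of 1e-03, a looser threshold than for H3K27ac, so the lists are not compared by their counts. The false discovery rates of the 6 peaks were 8.13% at the GOT2 peak nearest its start and 19.16% to 22.14% at the rest. The median rate of the HSF1 list was 17.94%. None of the 6 was of the promoter class, which held 1.46% of the list.

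GOT2 had 4 HSF1 peaks, all intergenic and before its start. The nearest (chromosome 16, 58843883 to 58845490) lay 76.5 kb from the start, 1608 bp wide with 28 tags, a 4.43-fold enrichment and a score of 61.4. This score was above 95.9% of the list, while its fold enrichment was under the list median. The median on chromosome 16 was 23 tags per HSF1 peak, and its part in this value was not tested.

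The other 3 GOT2 peaks were farther away, with scores close to the lowest of the list. The peak 274 kb before the start (59041865 to 59043153) was 1289 bp wide with 19 tags, a 4.43-fold enrichment and a score of 30.91. The peak 288 kb before it (59055677 to 59056657) was 981 bp wide with 15 tags, a 3.83-fold enrichment and a score of 30.45. The peak 338 kb before it (59106036 to 59107140) was 1105 bp wide with 16 tags, a 3.54-fold enrichment and a score of 31.17. The assignment to GOT2 is by position and does not measure a target.

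The ASNS peak of HSF1 (chromosome 7, 97509747 to 97510583) was 837 bp wide with 14 tags, a 4.08-fold enrichment and a score of 31.16. It was of the upstream class, 8.31 kb before the listed start at 97501854, but lay 47.6 kb inside the gene as counted from the other listed start at 97557753. The GFPT1 peak of HSF1 (chromosome 2, 69575120 to 69576142) lay in an intron 38.7 kb inside the gene, 1023 bp wide with 16 tags, a 5.32-fold enrichment and a score of 34.83. It had the highest fold enrichment of the 6, and the nearest H3K27ac peak was 98.3 kb away and assigned to NFU1.

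None of the HSF1 peaks of the list overlapped an H3K27ac peak of these genes or lay within 10 kb of one. In the whole H3K27ac list 0.260% of the peaks overlapped an HSF1 peak and 1.94% had one within 10 kb, and the exact 95% interval of 0 of 43 peaks reached 8.22%, above both shares. The closest approach was at GLUD1, where an HSF1 peak assigned to SHLD2 (chromosome 10, 88868493 to 88869493), with 16 tags, a 4.43-fold enrichment and a score of 35.89, lay 10.7 kb from the H3K27ac peak. At ASNS the gap was 25.9 kb and at GOT2 75.7 kb. Of the 43 H3K27ac peaks 6 had an HSF1 peak within 100 kb (14.0%, exact 95% interval 5.30% to 27.9%), against 19.2% of the whole H3K27ac list. All 6 lay outside MTHFD1L, where the share was 6 of 21 (28.6%, interval 11.3% to 52.2%), so leaving out this gene turned the direction. Both intervals contained the share of the list. The intervals treat each peak as independent, which the 22 peaks of MTHFD1L are not, so those over 43 peaks are too narrow and decide little. The MTHFD1L run lay 256 kb from the nearest HSF1 peak.

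**Figure D5:**
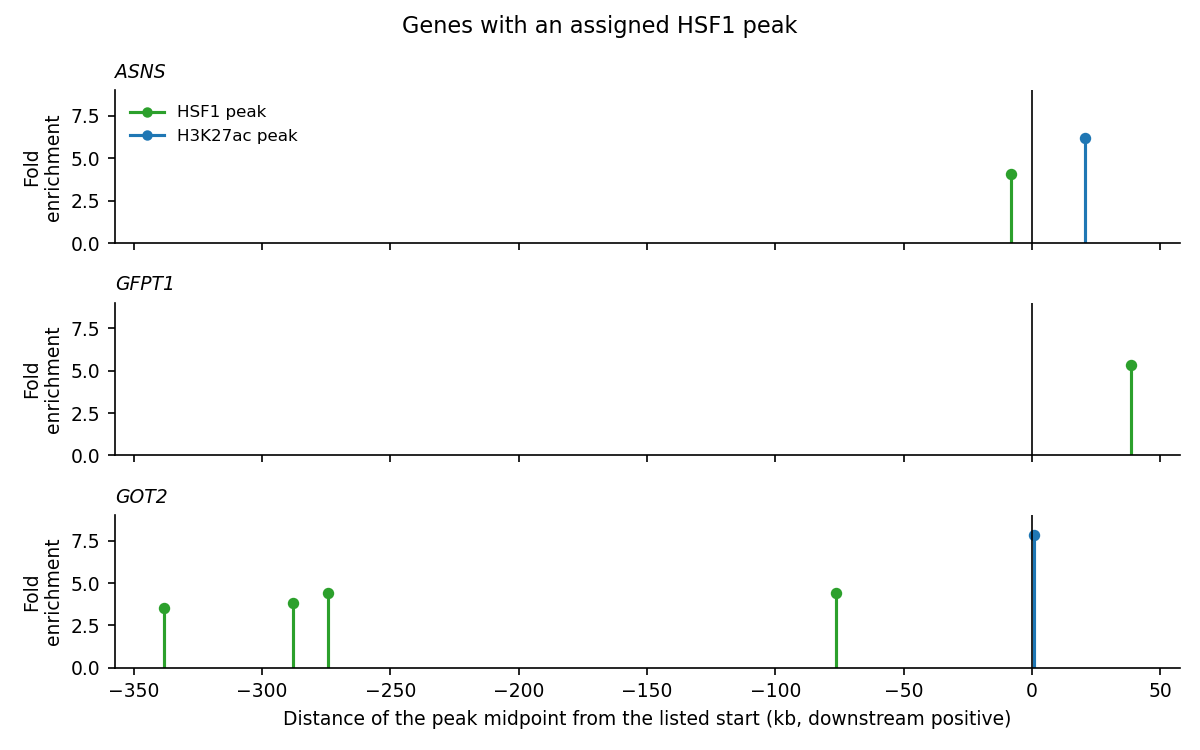
HSF1 peaks (green) and H3K27ac peaks (blue) at ASNS, GFPT1 and GOT2 by distance of the peak midpoint from the start that the list gives for that peak (kb, downstream positive), with fold enrichment on the vertical axis from 0. The ASNS peaks refer to different listed starts, 97501854 for HSF1 and 97557753 for H3K27ac, and the 4 GOT2 HSF1 peaks stand 76.5 to 338 kb before the start.

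Beyond these 41 genes, 46 other genes of amino acid transport, glutamine use and amino acid sensing were examined. H3K27ac peaks were assigned to 18 of them (39.1%, exact 95% interval 25.1% to 54.6%), beside 24.7% of all genes and 28.5% of protein-coding genes. The interval excluded the first of these shares and contained the second, so the reading depends on the background chosen. The list was chosen with earlier results of these data known, so the interval describes it and is no test of a higher share. The highest fold enrichments were at LAMTOR1, a lysosomal anchor of mTORC1 (10.66), at EIF2AK4, the GCN2 kinase that senses uncharged tRNA (10.29), and at RPTOR, the scaffold subunit of mTORC1 (8.46, with 17 peaks). HSF1 peaks were assigned to 3 of the 46 (6.52%, interval 1.37% to 17.9%), beside 13.6% of all genes. These were SLC25A13 with a 5.60-fold enrichment, SLC7A9 with 5.32 and SLC6A15 with 4.74, named after their values were seen, and the SLC6A15 peak was 1040 kb from its start.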

How the data were processed

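Untreated HCT116 cells gave 4 ChIP-seq libraries, in which each IP (H3K27ac or HSF1) has its own input. Per the labels, the authors used FastQC and Bowtie2 2.2.7 with hg19, and the study's methods name MACS for peak detection. Peaks were called per IP library, and each deposited list was analysed, with the inputs used only through the values of the lists. Tag counts per peak were deposited as whole numbers without normalization. The deposited score is 10 times the negative log10 of the caller's p-value. Fold enrichment, a ratio of IP to local background, and the false discovery rate, a percent, stand as the authors deposited them. Read filters are unknown from the sources used here.

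Rows of 39350 (H3K27ac) and 24461 (HSF1) transcripts were reduced to 1 entry per region and symbol. Classes, starts and distances, which run from the peak midpoint, were those of the lists. Assignment to a gene is by position and measures no target. The background was every gene with a curated RefSeq transcript on chromosomes 1 to 22 and X, 29853 genes, of which 19392 are protein-coding. It was named through a table of GRCh38.p14, from which no peak position was taken. Genes on the list without a row counted as without a peak. The members and lists were chosen with earlier results of these data known, so lists are described by counts and exact 95% Clopper-Pearson intervals, which cover counting error only, with no set test. Overlap required 1 bp. Named with all values were SLC1A5, genes with an HSF1 peak, the highest peak per role, and genes with 4 or more peaks or a region above the tangent point. Alternatives covered stricter scores, distances, other backgrounds and stitching of 5, 15 and 20 kb. Stitching, gaps between peaks, the tangent point and the exact interval were tested on simulated data. The software was scipy 1.17.1, pandas 2.3.3, numpy 2.4.6 and matplotlib 3.10.9 under Python 3.11.15.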

Additional observations from a re-analysis of the deposited data

How the results depend on the processing

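Of 38 alternative values 23 stayed within 1.5 times the reported count or, for medians and shares, within the 95% interval of the reported value. At a score of 50 or more in both lists, HSF1 peaks were left at 1 of the 41 genes (GOT2), as was an HSF1 peak within 100 kb and a peak of both lists. At a score of 100 or more, H3K27ac peaks were left at 4 genes (CTPS1, MTHFD1L, PSPH and PYCR1), promoter peaks at 2, HSF1 peaks at 0 and peaks of both lists at 0, and the median H3K27ac fold enrichment was 7.92. Within 10 kb of a start, H3K27ac peaks were found at 8 genes, HSF1 peaks at 1 (ASNS) and peaks of both lists at 0. Within 50 kb, 2 HSF1 peaks lay near an H3K27ac peak of these genes, against 0 that overlapped one. With protein-coding genes alone as the background, the shares were 28.5% for H3K27ac and 12.5% for HSF1, against 24.7% and 13.6%. The causes were not tested, beyond the smaller number of peaks that a stricter setting leaves. MTHFD1L was the only gene of the 41 above the tangent point in each of the 5 other rankings, at ranks 9 to 15. Without MTHFD1L, a choice made after seeing the data, the median H3K27ac fold enrichment stayed at 6.73 and the share of H3K27ac peaks with an HSF1 peak within 100 kb was 28.6%, against 14.0%. No paired analysis was possible because each group held 1 library.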

Other observations

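A gene without an assigned peak can lie beside a gene that has one, since each region was assigned by distance. In RefSeq gene order (GRCh38.p14), 11 of the 27 genes without an H3K27ac peak had a flanking protein-coding gene with one (40.7%), against 37.8% of 13864 protein-coding genes without a peak. A flanking promoter peak was found for 3 of the 27 (11.1%), against 17.4%. These were AP2S1 beside SLC1A5, ATRAID beside CAD and TCTN3 beside ALDH18A1, named after their values were seen.

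AP2S1 encodes a subunit of the clathrin adaptor AP-2. Its peak (hg19, chromosome 19, 47351174 to 47352041) was 868 bp wide with 17 tags and a 5.05-fold enrichment, 1.96 kb inside AP2S1. The ATRAID peak (chromosome 2, 27433624 to 27434805) held 23 tags with an 8.79-fold enrichment, and the TCTN3 peak 18 tags with a 5.61-fold enrichment.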
